A study of Mus musculus with 4 samples.

Results

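The Ifit-high endothelial cells (ECs) of the mouse left ventricle were cells with many transcripts of 5 interferon-stimulated genes, Ifit1, Ifit2, Ifit3, Ifit3b and Oasl1, and 947 of the 41843 cells in 4 single-cell libraries were of this kind. The members were chosen by the measured counts of these 5 genes, so the levels of the 5 describe the choice and were not tested. A cell was a member when it had over 200 detected genes, under 20% mitochondrial and under 1% hemoglobin transcripts, and at least 3 transcripts in sum of Pecam1, Cdh5, Kdr, Tie1, Egfl7 and Cldn5, which mark endothelium. It also had at least 3 transcripts of the 5 genes in sum, making up at least 0.1% of the transcripts of the cell. Cells with transcripts of arterial genes (Gja4, Gja5, Hey1, Sema3g) or of the vein gene Selp, and cells with 2 or more transcripts of Apln and Pgf or of mural genes (Kcnj8, Abcc9, Vtn, Pdgfrb), were left out. ECs that passed all these gates are called gated ECs, and the 24303 gated ECs that missed the threshold on the 5 genes served for comparison. Members numbered 117 of 4152 gated ECs in NC library 1, 198 of 4087 in NC library 2, 123 of 3777 in HFpEF library 1 and 509 of 13234 in HFpEF library 2.

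All libraries held cells sorted for red fluorescent protein, the tdTomato reporter switched on by Cdh5-CreER, a tamoxifen-dependent recombinase driven by an endothelial promoter. Tamoxifen was given at 7 weeks of age, and the same recombinase deletes exon 2 of floxed Scarb1, the gene of the HDL receptor SR-B1, on a C57BL/6N background. NC mice, whose diet the labels call chow, were fed 10% of their calories as fat and drank plain water, whereas HFpEF mice were fed 60% fat and drank 0.5 mg/ml L-NAME, an inhibitor of nitric oxide synthase, a regimen that models heart failure with preserved ejection fraction. The study describes 20 weeks of diet for its lineage-traced mice. Its mice carried 1 or 2 floxed Scarb1 alleles, but the labels name only the diet of each library, so no genotype was assigned and 1 diet may cover both genotypes, and the number of mice behind a library is not given in the sources used here. With the 3′ assay of 10x Genomics each transcript is counted once by its unique molecular identifier (UMI). The members held 487113 and 931765 UMIs in NC libraries 1 and 2, and 298968 and 1477670 in HFpEF libraries 1 and 2. Their median depth was 3682 and 4336 UMIs per cell in the NC libraries against 2099 and 2410 in those of the HFpEF mice, so cells of the HFpEF libraries were shallower. Other gated ECs had medians of 3620, 3938, 1707 and 1541 UMIs in the same order.

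Interferons are secreted proteins that warn cells of infection. Type I interferons signal through the receptor pair Ifnar1 and Ifnar2 and the kinases Jak1 and Tyk2 to a complex with Stat2 and Irf9, which binds a short DNA element in the promoters of interferon-stimulated genes, while interferon gamma signals through Ifngr1, Ifngr2, Jak1 and Jak2. The Ifit proteins bind viral RNA and curb its translation, and Oasl1 restrains the translation of Irf7. In endothelium the response is known for antiviral proteins, antigen presentation and the chemokines Cxcl9 and Cxcl10, which attract T cells that carry Cxcr3.

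The 4 Ifit genes of the rule lie near each other on the forward strand of chromosome 19 of GRCm38. They run from chr19:34550694-34576419 (Ifit2) over chr19:34583531-34588731 (Ifit3) and chr19:34607970-34613401 (Ifit3b) to chr19:34640871-34650009 (Ifit1). Oasl1 lies at chr5:114923240-114937915. The element that the complex with Stat2 and Irf9 reads is commonly written as 2 GAAA blocks with 2 bases between them. The letters GAAANNGAAA were therefore searched on both strands of 300-base promoters from RefSeq (GRCm38.p6, 250 bases before to 50 bases after the start), with overlapping matches counted. Stretches around the matches are shown for 3 genes of the rule and for 4 genes on which the results below turn. Each is printed 5′ to 3′ on the strand of the gene, with the matched bases in capitals. A match on the opposite strand appears here as its reverse complement, which starts with TTTC.
Ifit1, chr19:34640765-34640833, forward strand: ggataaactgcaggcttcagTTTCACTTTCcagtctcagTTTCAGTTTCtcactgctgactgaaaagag
Ifit3, chr19:34583353-34583436, forward strand: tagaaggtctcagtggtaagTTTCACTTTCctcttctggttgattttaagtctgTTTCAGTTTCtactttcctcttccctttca
Ifit3b, chr19:34607749-34607832, forward strand: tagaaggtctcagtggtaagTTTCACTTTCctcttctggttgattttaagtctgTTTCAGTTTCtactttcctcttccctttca
Isg15, chr4:156200855-156200916, reverse strand: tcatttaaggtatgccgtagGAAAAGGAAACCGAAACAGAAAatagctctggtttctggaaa
Bst2, chr8:71537567-71537622, reverse strand: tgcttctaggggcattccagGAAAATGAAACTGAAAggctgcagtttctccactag
Rsad2, chr12:26456543-26456592, reverse strand: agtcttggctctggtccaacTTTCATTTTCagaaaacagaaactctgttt
Cxcl10, chr5:92349073-92349122, reverse strand: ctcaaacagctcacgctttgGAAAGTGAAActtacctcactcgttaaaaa

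The stretches of Ifit3 and Ifit3b, which lie before the start of each gene, are identical over all 84 bases. How alike the 2 transcripts are was not tested, and UMIs may be divided between them by chance. Isg15 held 3 overlapping matches, Bst2 held 2, and Rsad2 and Cxcl10 held 1 each, whereas the windows of Ifit2 and Oasl1 held none. The windows of Irf7, Ifi44, Cmpk2 and Oasl2, which were also higher in members, held none either. Ifitm3, another gene described below, held 2 matches after its start. Of all 32851 promoters, 3.44% held the motif. The share was 3.81% of the 8302 genes with a promoter among those compared below, and 29.1% of 220 such genes that were higher in the members. Promoters of 271 such genes were sought, and the others were not in the table used. Among the gene lists, 11 of 19 interferon ligands, 18 of 46 antiviral effectors, 10 of 17 interferon gamma responsive genes and 5 of 16 MHC class I genes with a promoter held it. It was in none of 8 interferon receptors and kinases and 12 NF-kB targets, and in 2 of 8 arterial markers, 1 of 10 capillary markers and 1 of 4 lipid-handling genes. A match describes the letters of the window only.

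Most members carried several of the 5 genes by which they were chosen. Ifit1 (ENSMUSG00000034459) had a UMI in 87.2%, 86.9%, 87.0% and 85.1% of members in NC libraries 1 and 2 and HFpEF libraries 1 and 2. In other gated ECs that share was 7.34%, 10.6%, 5.97% and 6.71%. The level of Ifit1 was 667 and 951 CPM (UMIs of a gene scaled to a common total of UMIs per sum of cells) in the members of the NC libraries and 1207 and 1047 CPM in those of the HFpEF libraries. Ifit3 (ENSMUSG00000074896) had a UMI in 83.8%, 85.4%, 61.0% and 63.3% of members, a smaller share in the HFpEF members. Its level was 579 and 659 CPM in NC members and 505 and 534 CPM in HFpEF members. The HFpEF members were also shallower, and the part of depth in the share of Ifit3 was not tested. Ifit2 had 269, 461, 391 and 488 CPM, Ifit3b 174, 212, 191 and 192 CPM, and Oasl1 152, 143, 154 and 158 CPM in the members of the 4 libraries in the same order. All 5 genes had a UMI in 10.3% and 11.6% of NC members and in 4.88% and 5.30% of HFpEF members, and 1 gene alone carried the sum in 2.56%, 4.04%, 14.6% and 12.4%.

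The members are a range set by a threshold on counts of the 5 genes, with many cells near it, and whether they form a separate kind of cell was not tested. Of the 947 members, 188 had exactly 3 UMIs of the 5 genes, and 473 had them at under 0.2% of their UMIs. On the other side, 1016 gated ECs had 2 UMIs of the 5 genes, and 432 had 3 or more at under 0.1%. Just inside the threshold, members with exactly 3 UMIs had 889, 1030.1, 1440.1 and 1229 CPM of Isg15 in the 4 libraries. Those members numbered 7, 17, 26 and 138. Just outside the threshold, cells with 2 UMIs had 664, 689, 936 and 714 CPM. Cells with 3 or more UMIs at under 0.1%, also outside it, had 948, 887, 794 and 832 CPM. In NC library 1 this last value was above that of the members with exactly 3 UMIs. Only 80 members had 0.5% or more.

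Genes that the rule did not use changed in steps with the sum of the 5 genes. The antiviral list, summed without the 5 genes, stood at 9162, 8950, 9148 and 10225 CPM in gated ECs with no UMI of the 5 genes. It reached 18828, 18728, 15518 and 18111 CPM in members between 0.1% and 0.2%, and 37648, 41134, 39409 and 35992 CPM in those at 0.5% or more. The last group held 2, 16, 9 and 53 cells. Isg15, a ubiquitin-like protein that is attached to other proteins during the antiviral response, went from 262, 366, 376 and 344 CPM in cells without a UMI of the 5 genes to 3559, 3706, 5648 and 3059 CPM in the same last group. The MHC class I list went from 8298, 9469, 12151 and 11362 to 11800, 17711, 21908 and 18243 CPM. Neighbouring steps did not always differ in this direction: in HFpEF library 1 the antiviral list was 13199.5 CPM at 2 UMIs and 12453 CPM at 3 or more UMIs under 0.1%, in 22 cells.

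**Figure D1:**
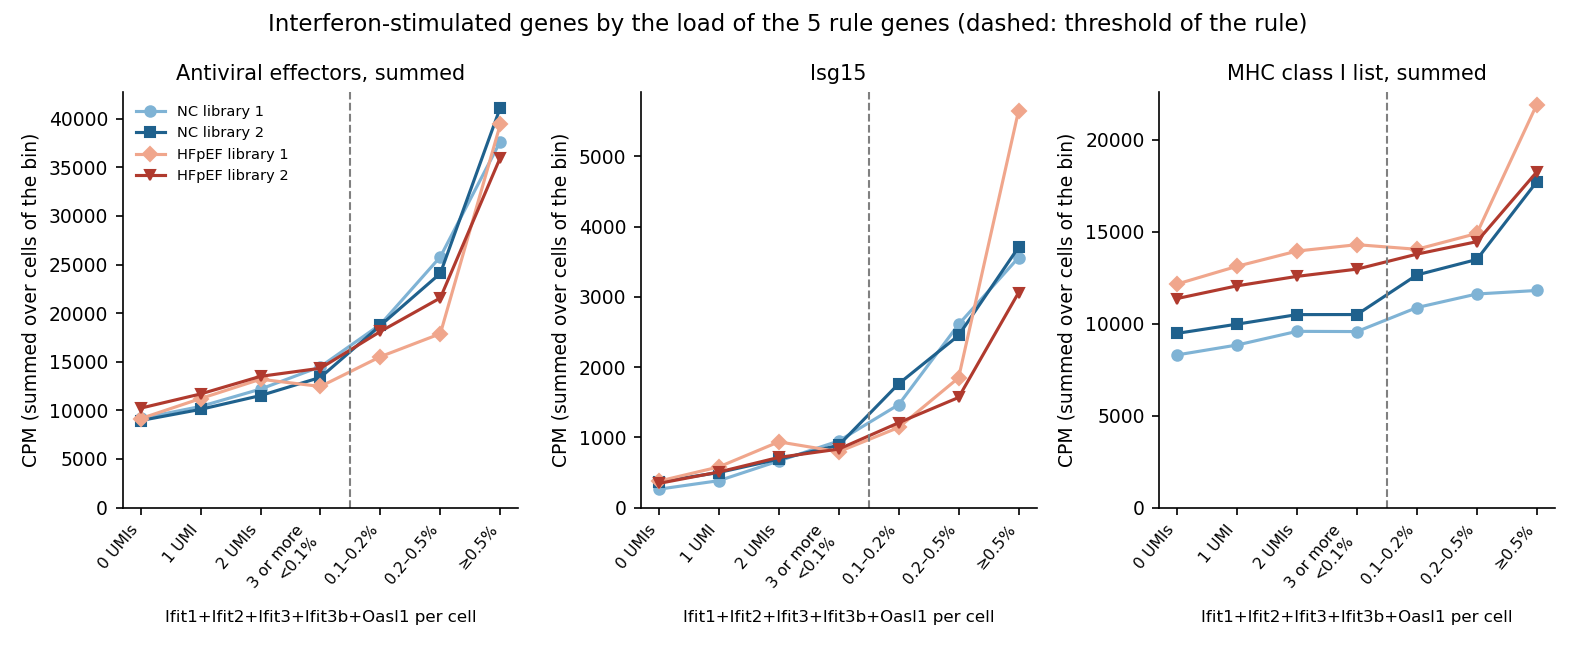
Summed levels in CPM (linear y axes from 0) of the antiviral list without the 5 genes of the rule, Isg15 and the MHC class I list, against the UMIs of the 5 genes per cell, with 1 line per library. Levels in each panel are higher in the last group, at 0.5% or more, than in cells with none in all 4 libraries, and the dashed line marks the threshold.

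The capillary part of the name was checked with genes outside the rule. All 17 capillary markers had UMIs in the members of each library, led by Fabp4, a fatty acid carrier, at 25516, 34127, 23782 and 23848 CPM. The 17 markers summed to 47409.9, 55139, 40740.1 and 41679 CPM in members and to 48943, 57776, 46554 and 46728 CPM in other gated ECs. None of the 17 passed the test between members and other gated ECs, with a median log2 fold change of -0.06. None of the 10 arterial markers tested passed it either (median -0.01). Both groups had passed the same arterial, vein, tip and mural gates. These tests therefore compare members with other gated ECs only, and cannot show that either group is capillary. Among 8 venous markers, Vcam1 and Icam1 were higher, which are also cytokine-induced adhesion molecules, and Ackr1 was at 0 in the members of all 4 libraries.

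Markers of other cell types were few. The 16 leukocyte markers summed to 4.11, 53.7, 56.9 and 32.5 CPM in members and to 37.4, 46.6, 41.2 and 136 CPM in other gated ECs. Ptprc was at 0 in the members of every library except NC library 2, and Cd3d and Cd3e were at 0 in those of NC libraries 1 and 2 and HFpEF library 1. Members of NC library 1 held only 2 UMIs of leukocyte markers, over 2 genes, and in the other libraries the most abundant marker was Nkg7, Lyz2 and S100a9 in turn, at 17.2, 36.8 and 10.8 CPM. Mural markers, led by Rgs5, summed to 181, 173, 328 and 116 CPM in members against 139, 148, 242 and 141 CPM in other gated ECs. Fibroblast markers, led by Dcn, summed to 18.5, 17.2, 36.8 and 21.7 CPM in members and to 41.3, 28.2, 20.2 and 25.3 CPM in other gated ECs. Lymphatic markers summed to 41.1, 40.8, 388 and 67.0 CPM, and the high value of HFpEF library 1 came mostly from 1 member with 89 UMIs of Ccl21a. Their sums in other gated ECs were 56.8, 86.7, 213 and 169.6 CPM. Of the members, 116 carried 2 or more UMIs of leukocyte, mural, fibroblast or lymphatic markers, and the class comparison without such cells called 282 genes. Members made up 2.82%, 4.84%, 3.26% and 3.85% of gated ECs with these cells included, and 2.77%, 4.62%, 3.08% and 3.71% without them. Such cells were therefore more frequent among members than among other gated ECs in each library, and the part of depth in this was not tested. The libraries shared between 10 and 42 cell barcodes per pair.

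Members were then compared with other gated ECs within each library, by UMIs summed per library and class and edgeR's quasi-likelihood test with the library as a block and Benjamini-Hochberg adjustment over all genes fitted. Nearly all called genes were higher in members. Of 10431 genes outside the rule and its gates, 271 (2.6%) were higher and 14 (0.134%) lower in members at an adjusted p under 0.05, and 230 of the 271 were higher in 4 of 4 libraries. The median log2 fold change of all these genes was -0.01. The cells were picked for 5 genes of the same response, and the other genes were read from the same cells. With every cell thinned to 1000 UMIs and chosen again, 130 genes were called, and without the library block 139. The p-values measure the spread between these 4 libraries, which may be technical.

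The genes with the largest rises were members of the interferon response. Cmpk2, a nucleotide kinase induced by interferon, had 216 and 292 CPM in NC members and 237 and 262 CPM in HFpEF members. Other gated ECs had 41.3, 42.1, 47.0 and 51.1 CPM, so the classes did not overlap, and the log2 fold change was 2.53 (SE 0.09, edgeR adjusted p = 2.85e-23). Ifi44 had 183, 229, 184 and 246 CPM in members and 20.7, 27.3, 35.7 and 42.6 CPM in other gated ECs (log2 fold change 2.81, SE 0.11). Usp18, a protease that removes Isg15 and damps the type I receptor, had 177, 196, 107 and 155 CPM against 19.1, 21.1, 19.2 and 21.6 CPM. Its log2 fold change was 3.04 (SE 0.11, edgeR adjusted p = 3.86e-23). Zbp1, a sensor of Z-form nucleic acid that can start cell death, had 51.3, 77.3, 73.6 and 76.5 CPM against 3.53, 6.04, 9.40 and 13.1 CPM (log2 fold change 3.18, SE 0.20). For these 4 genes the lowest member library lay above the highest library of other gated ECs.

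Less abundant genes were also higher in members. Ifi206, of the Ifi200 family of DNA-binding proteins, had 10.3, 35.4, 36.8 and 38.6 CPM in members and 0.69, 1.54, 1.45 and 2.63 CPM in other gated ECs (log2 fold change 4.21, SE 0.29). Its relatives Ifi213, Ifi211 and Ifi204 rose by log2 fold changes of 2.83, 2.43 and 2.40, and reads of such near-identical relatives may be divided unevenly. Oas1a, which makes the 2-5A messenger of the RNase L pathway, had 37.0, 44.0, 40.1 and 41.3 CPM against 5.61, 4.56, 9.40 and 9.41 CPM. Dhx58, a regulator of RNA sensing, had 34.9, 41.9, 23.4 and 26.4 CPM against 5.54, 6.27, 4.48 and 4.61 CPM. Phf11b rose by a log2 fold change of 2.91 (SE 0.26). Ms4a4d, with a fitted log2 fold change of 2.76 (SE 0.30), had log2 ratios of 1.44 and 1.33 under NC and of 3.05 and 2.69 under HFpEF. Its libraries of the classes overlapped, with 4.11, 6.44, 30.1 and 46.0 CPM in members and 0.88, 1.95, 2.75 and 6.27 CPM in other gated ECs. Each of these genes was higher in 4 of 4 libraries.

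**Figure D2:**
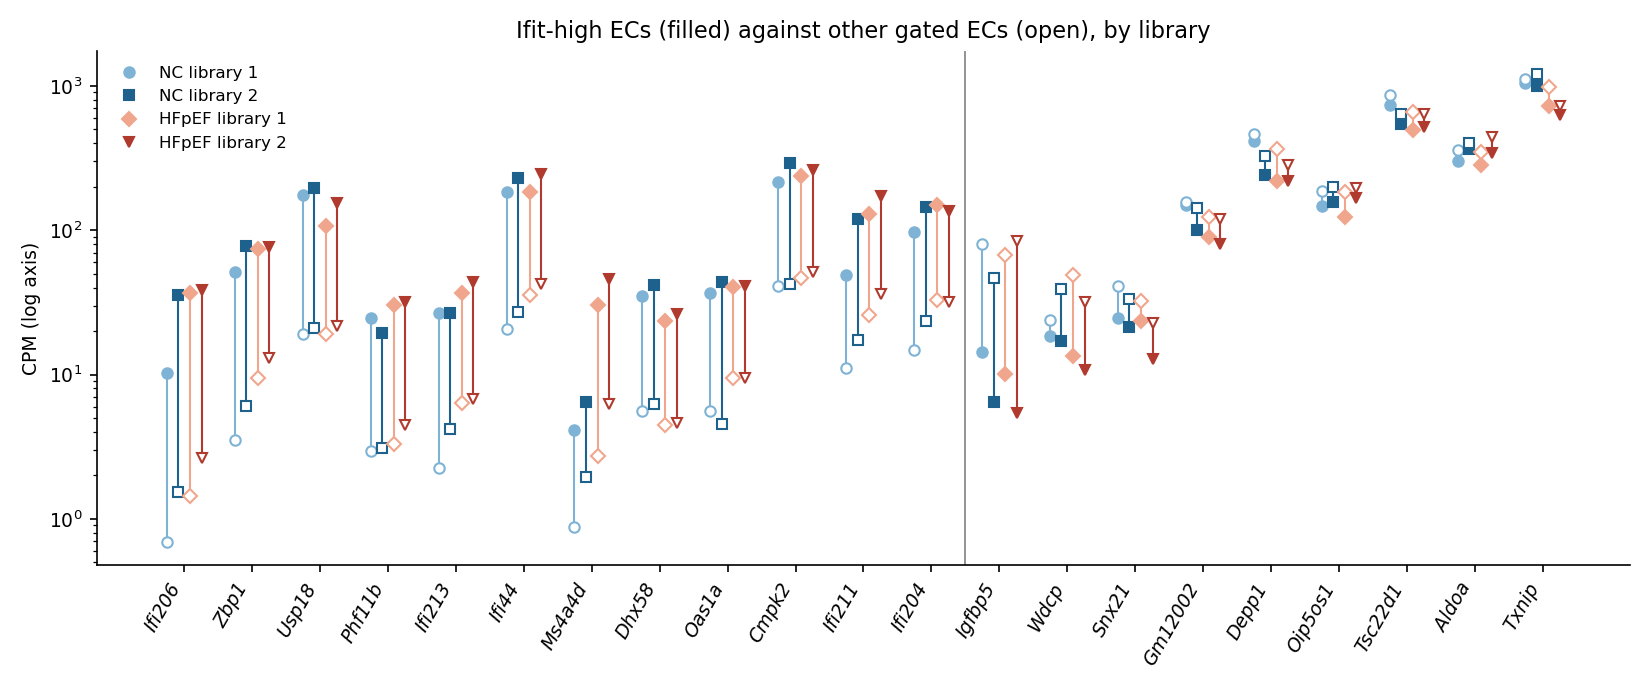
CPM per library on a log axis of the 12 genes with the largest rises (left of the line) and the 9 genes with falls (right) that averaged 10 CPM or more and moved alike in 4 of 4 libraries. Filled points are members, open points other gated ECs of the same library. Ifi206 shows the widest fitted gap among the rises, and all falls except Igfbp5 and Wdcp are below a log2 fold change of 1 in size.

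No interferon transcript was detected in the members themselves. All 20 interferon genes on the list were at 0 in their 3195516 UMIs, where a count of 0 allows up to 0.939 CPM over the 4 libraries. Among all cells that passed the quality filter, 18 of the 20 were at 0, Ifnab had 1 UMI, and Ifng, made by T and natural killer cells, had 105 UMIs in 13 cells. Such sparse counts say only that these transcripts were not detectable at this depth, and the intervals and limits given here cover counting error only.

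Receptors and kinases did not pass the test. Of 8 tested, none was called in either direction (median log2 fold change 0.01, against -0.01 for all genes). Ifnar1 had 32.8, 33.3, 20.1 and 33.8 CPM in members and 31.9, 33.5, 35.1 and 30.0 CPM in other gated ECs. Ifngr1 had 203, 241, 187 and 223 CPM against 279, 275, 210 and 217 CPM. For both receptors the libraries of the classes overlapped.

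Transcription factors downstream of the receptors rose, 5 of 8 tested (median log2 fold change 0.41). Irf7, which amplifies the type I response, had 460, 443, 345 and 407 CPM in members and 75.1, 81.1, 87.0 and 92.8 CPM in other gated ECs (log2 fold change 2.35, SE 0.08). Stat2 and Irf9, of the type I complex, rose by log2 fold changes of 1.53 and 1.10. The rise of Irf1 was smaller, at 0.43 (SE 0.07, edgeR adjusted p = 4.38e-05), and it was not called without the library block (0.46, edgeR adjusted p = 0.647). It had 376 CPM in members and 398 CPM in other gated ECs of NC library 1, the only library in which it was not higher, and 624, 729 and 690 against 439, 438 and 539 CPM in the others. Irf2 was also called, while Irf3, Irf8 and Stat3 were not.

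Sensors of foreign nucleic acid and their adaptors were higher for 7 of 13 tested (median log2 fold change 0.45). Besides Zbp1 and Dhx58 these were the RNA sensors Ifih1 (log2 fold change 1.64), Ddx58 (1.29) and Tlr3 (0.80), the DNA sensor Cgas (0.84) and the adaptor Myd88 (0.45). Of the negative regulators, 5 of 10 were higher (median 0.33). Besides Usp18 they were Trim21 (log2 fold change 1.35) and the cytokine signalling suppressors Socs1 (0.70), Socs2 (0.43) and Socs3 (0.26).

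Of the antiviral effectors outside the rule, 47 of 50 tested rose and none fell, with a median log2 fold change of 1.54. The counts were 39 with cells thinned to 1000 UMIs and between 45 and 49 under the other alternatives. Isg15 (ENSMUSG00000035692) had 1819 and 2150 CPM in NC members and 1689 and 1482 CPM in HFpEF members, against 322, 456, 439 and 406 CPM in other gated ECs (log2 fold change 2.18, SE 0.07). Rsad2, or viperin, had 788, 1377, 830 and 1142 CPM against 200, 306, 218 and 280 CPM (log2 fold change 2.08, SE 0.06). Bst2, or tetherin, which holds budding virus at the membrane, had 1285, 1419, 773 and 1107 CPM against 387, 443, 405 and 475 CPM (log2 fold change 1.47, SE 0.07). Ifitm3, which blocks viral entry, had 4732, 4754, 3780 and 4423 CPM against 2227, 2188, 2267 and 2573 CPM (log2 fold change 0.98, SE 0.05). Ly6e and Slfn5, which were abundant in all gated ECs, rose by 0.47 and 0.66. Ifitm2, a neighbour of Ifitm3 in the family, did not pass the test (0.03, edgeR adjusted p = 0.966), nor did Pnpt1 and Ifi27.

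Because members were deeper than other gated ECs in the HFpEF libraries, shares of cells were compared after every cell was thinned to 1000 UMIs and the rule applied again. Isg15 then had a UMI in 87.0%, 85.1%, 81.4% and 72.7% of members and in 22.1%, 29.5%, 27.7% and 28.4% of other gated ECs. Rsad2 had one in 52.2%, 68.9%, 49.2% and 61.7% against 15.1%, 23.1%, 16.5% and 21.1%. The share was therefore higher in members in 4 of 4 libraries for both genes, and also for Cxcl10, Irf7 and Gbp2. H2-K1 was higher in members except in HFpEF library 1, with 83.1% of members against 86.2% of other gated ECs. Irf1 was higher in members except in NC library 1, with 19.6% against 25.1%. Sorted cells under the EC gate had Isg15 in 24.9%, 31.4%, 34.7% and 32.0%, which was above the share in other gated ECs in 4 of 4 libraries and below that in members. No sorted cell type known to lack these genes was available, and the part of free RNA in these shares was not tested.

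Genes known for their response to interferon gamma rose for 19 of 26 tested (median log2 fold change 1.42). Iigp1, an immunity-related GTPase, had 1741, 2282, 2943 and 2319 CPM in members and 869, 1024, 1322 and 1142 CPM in other gated ECs (log2 fold change 1.12, SE 0.05). The guanylate-binding protein Gbp7 had 478, 490, 552 and 561 CPM against 120, 154, 239 and 224 CPM (log2 fold change 1.58, SE 0.08). The chemokine Cxcl10 had 140 and 277 CPM in NC members and 592 and 484 CPM in HFpEF members, against 80.8, 114, 142 and 184 CPM (log2 fold change 1.46, SE 0.10). Cxcl9 had 224, 355, 475 and 374 CPM against 117, 125, 185 and 154 CPM (log2 fold change 1.34, SE 0.08). Cd274, the immune checkpoint ligand PD-L1, rose by 1.70 (SE 0.09). Not called were Ido1 and 6 MHC class II genes, among them Cd74 (-0.25) and H2-Ab1 (-0.03).

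MHC class I genes rose for 18 of 20 tested, by less (median log2 fold change 0.54). The light chain B2m had 2788, 3063, 3820 and 4240 CPM in members against 2217, 2372, 3146 and 3599 CPM in other gated ECs (log2 fold change 0.34, SE 0.04). The heavy chains H2-K1 and H2-D1 rose by 0.30 and 0.23, the immunoproteasome subunit Psmb8 by 0.95 and the peptide transporter Tap1 by 1.22. Tapbpl and Erap1 were not called. The count was 7 with cells thinned to 1000 UMIs and 8 without the library block.

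**Figure D3:**
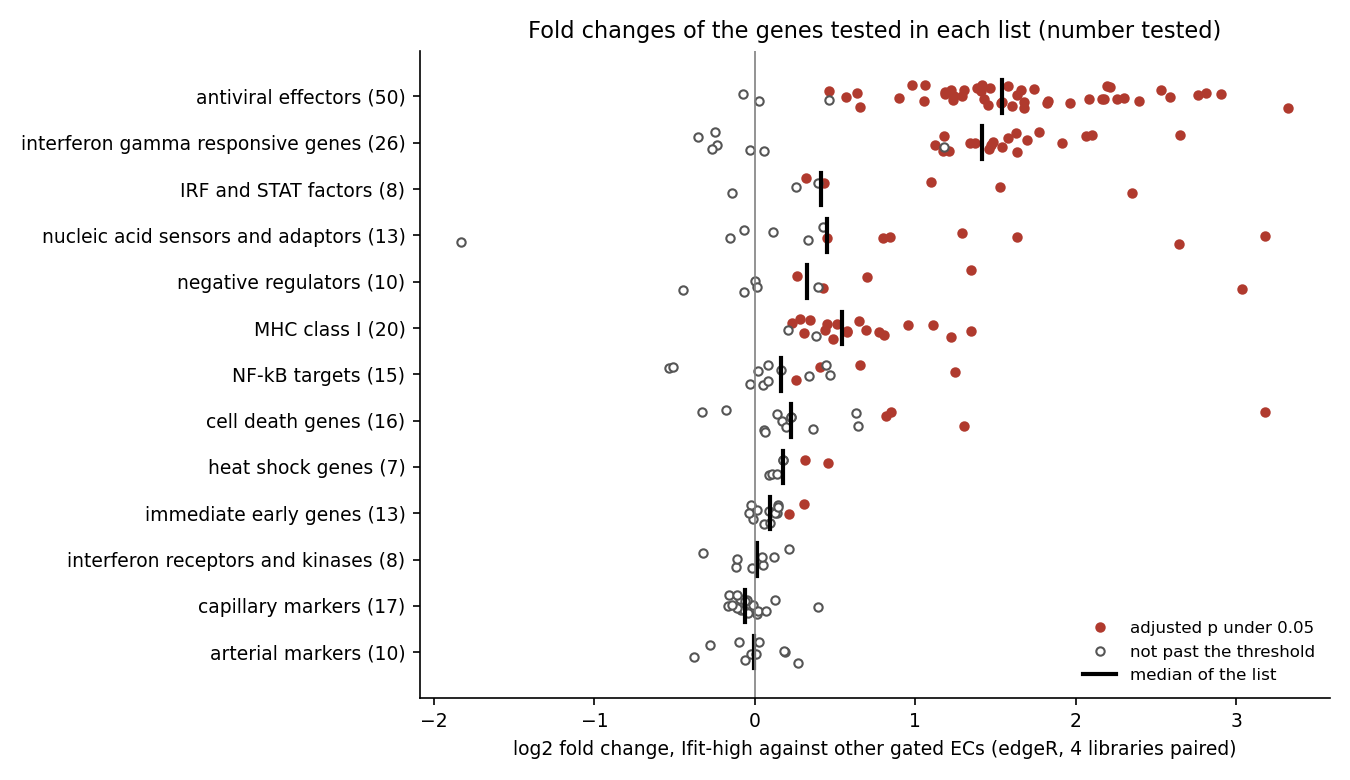
log2 fold change of members against other gated ECs for each gene tested in 13 lists, with the number tested in parentheses. Filled points had an adjusted p under 0.05 and bars mark list medians, which run from 1.54 for antiviral effectors to -0.06 for capillary markers.

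Lists outside the interferon response were read in the same way, and the lists were not tested against each other. Of 15 NF-kB targets, 4 were higher, namely Vcam1 (log2 fold change 0.65), Icam1 (0.26), Plaur (0.41) and Il6 (1.25), and the list median was 0.16. Il6 had 2.05 CPM in members of NC library 1 against 8.19 CPM in other gated ECs, and 90.0 against 38.5 CPM in HFpEF library 2, so its libraries did not all move one way. Nfkbia, an early NF-kB target, had a log2 fold change of 0.08 and was not called. Among 16 genes of cell death, Zbp1, Xaf1 (1.30), Tnfsf10 (0.85) and Casp4 (0.81) were higher, which are also known to respond to interferon (median 0.23). Of 7 heat shock genes, Hsph1 (0.45) and Hspe1 (0.31) were called, and of 13 immediate early genes, Atf3 (0.30) and Zfp36 (0.21). None of 3 endocardial, 4 leukocyte, 2 mural, 3 fibroblast, 5 cardiomyocyte and 7 lipid-handling genes tested was called. Scarb1 had 90.3 and 48.3 CPM in NC members and 134 and 55.5 CPM in HFpEF members, and 109, 48.0, 111 and 50.8 CPM in other gated ECs. The number 1 library of each diet was the higher of its pair in both classes. Counts from a 3′ assay do not read the floxed exon 2 itself, and no genotype was taken from these levels.

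Few genes were lower in members, and their number moved with the fit. Against 14 in the comparison above, it was 4 with DESeq2, 47 without a filter on low counts, 1 without the library block, 272 against all other ECs, 25 without NC library 1, 9 without NC library 2, 34 without HFpEF library 1 and 8 without HFpEF library 2. Igfbp5, which binds insulin-like growth factors, had 14.4, 6.44, 10.0 and 5.41 CPM in members and 79.9, 46.6, 67.5 and 84.4 CPM in other gated ECs (log2 fold change -3.18, SE 0.22). Between 75.0% and 90.6% of its UMIs in other gated ECs lay in the top 1% of those cells, and 2, 3, 2 and 7 members of the 4 libraries had a UMI. With cells thinned to 1000 UMIs it had a log2 fold change of -0.94 and was not called. Wdcp (-1.24) was also concentrated, with 57.6% to 77.6% of its UMIs in the top 1% of other gated ECs. It was not called with cells thinned (log2 fold change -1.67, edgeR adjusted p = 0.295) or against other gated ECs matched on UMIs (-0.87, edgeR adjusted p = 0.195). Without the library block it was not called either (-1.28, edgeR adjusted p = 0.0801). Of 4 proliferation genes tested, Top2a and Ube2c were lower, and Cdk1 and Ccnb1 were not called. Top2a had 0, 3, 1 and 3 UMIs in members, and 87.2% to 100% of its UMIs in other gated ECs lay in the top 1% of cells. A UMI of Top2a was in 0%, 1.52%, 0.813% and 0.589% of members and in 1.46%, 1.18%, 0.520% and 0.919% of other gated ECs. That share was not lower in members of NC library 2 and HFpEF library 1. The lymphatic gene Lyve1 was also called lower, with 0, 0, 13.4 and 0 CPM in members against 2.52, 5.45, 13.0 and 8.67 CPM, so it was not lower in HFpEF library 1. Prox1, Mmrn1, Flt4 and Ccl21a were not called. Widely expressed genes had small falls. Txnip, a regulator of glucose uptake, had 1039, 992, 722 and 625 CPM against 1116, 1206, 976 and 721 CPM (log2 fold change -0.20, SE 0.05). Depp1 (-0.34) and Tsc22d1 (-0.24) were of the same order, as were Snx21 (-0.66), Gm12002 (-0.38), Oip5os1 (-0.28) and Aldoa (-0.23). Most of these small falls rested on the settings. Of 14 alternatives, the call was lost in 11 for Oip5os1, in 9 each for Snx21 and Aldoa, in 8 for Txnip, in 7 for Gm12002 and in 4 each for Depp1 and Tsc22d1, and none of these genes changed direction.

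The share of gated ECs that were members did not separate the diets. It was 2.82% (95% exact binomial interval 2.34 to 3.37) and 4.84% (4.21 to 5.55) for NC, and 3.26% (2.71 to 3.87) and 3.85% (3.52 to 4.19) for HFpEF. The HFpEF values lay between the NC values, with means of 3.55% ± 0.417 (SD, n = 2) in HFpEF and 3.83% ± 1.43 (SD, n = 2) in NC, and an exact two-sided permutation test gave p = 1, where 2 libraries against 2 cannot go below 0.333. The order changed with the setting. A sum of 3 UMIs is 0.174% and 0.191% of the UMIs of the median gated EC in the HFpEF libraries but 0.0828% and 0.0758% in the NC libraries, so for a median cell the floor of 3 UMIs was stricter than 0.1% only in HFpEF. After thinning to 1000 UMIs the share was 1.02% and 1.65% in NC and 1.92% and 1.92% in HFpEF, which did not overlap (exact permutation p = 0.333). All gates were applied again to the thinned counts, so the gated ECs were not the same cells. They numbered 4489 and 4489 in NC and 3077 and 10877 in HFpEF, against 4152, 4087, 3777 and 13234 as deposited. With 0.1% of the UMIs as the only threshold it was 3.35% and 5.43% in NC and 5.82% and 7.28% in HFpEF. No order of the diets was therefore kept across these settings.

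**Figure D4:**
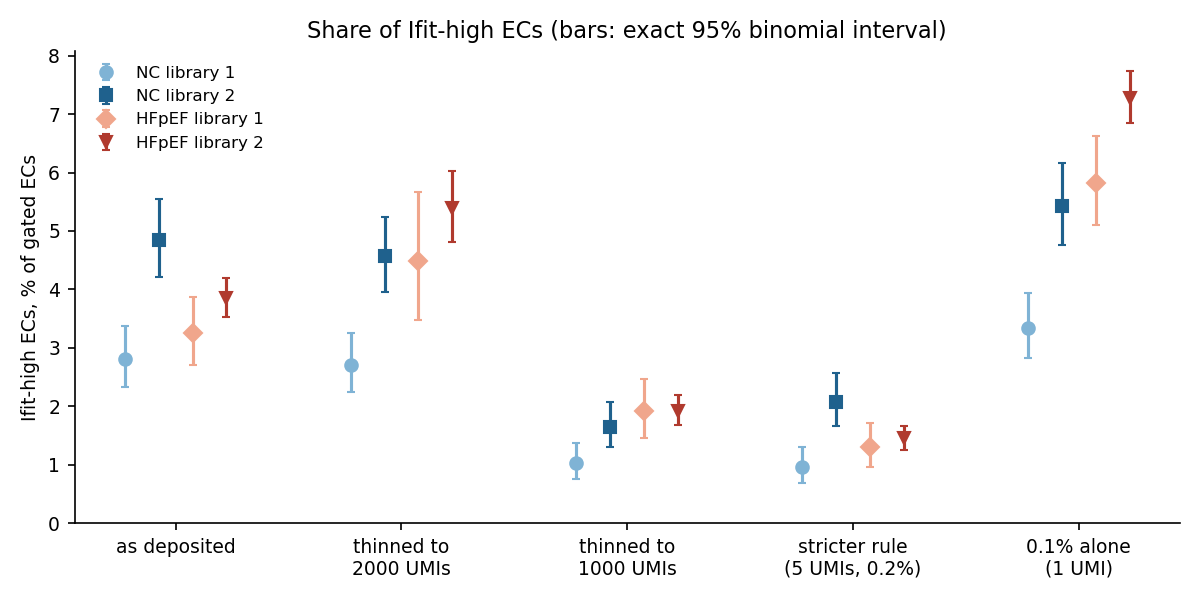
Share of gated ECs that were members, in percent (y axis from 0), for each library under 5 settings, with exact 95% binomial intervals that cover counting error. The HFpEF libraries lie between the NC libraries as deposited and above both of them after thinning to 1000 UMIs and with 0.1% alone.

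Cells that met the threshold on the 5 genes were not limited to the gated ECs. After thinning to 1000 UMIs they made up 1.03%, 1.28%, 1.88% and 2.26% of ECs with a UMI of the arterial gate, which was 0.0162 percentage points below gated ECs on average (SD 0.287 over 4 libraries). Gated ECs were higher in 2 of 4 libraries, and an exact permutation test by sign flips gave p = 0.75, where 0.125 is the smallest possible. The arterial gate was applied to the thinned counts, so gated ECs here could include cells that lost their arterial UMIs by thinning. How far this brought the 2 shares together was not tested. Among cells under the EC gate the share was 1.03%, 1.497%, 2.00% and 2.22%. None was found in 144 ECs with 2 or more UMIs of Apln and Pgf, which allows a share of up to 2.08%, so a share like that of gated ECs was not detectable there.

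The next comparison asked which genes differed between HFpEF and NC within the members, by edgeR's quasi-likelihood test on 2 sums per diet. Heat shock genes made up the largest group of calls. Of 6931 genes outside the rule, 19 (0.274%) were higher and 6 (0.0866%) lower in HFpEF members, and the libraries of the diets did not overlap for any of these 25 genes, which also held for 42.8% of all genes tested. The number of calls moved with single libraries and with the settings of the fit. In edgeR none was left without NC library 2 (593 genes had an unadjusted p under 0.05), and there were 23 without NC library 1, 128 without HFpEF library 1 and 67 without HFpEF library 2. DESeq2 called 11 genes. With all 4 libraries edgeR called 120 without a filter on low counts, 58 without marker-carrying cells and 159 with the library number as a block. Depth per cell differed between the diets for all of these values, and diet and depth cannot be told apart in the libraries as deposited. With cells thinned to 1000 UMIs 5 genes were called.

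Of 7 heat shock genes, 5 were higher in HFpEF members and all 7 fold changes were above 0 (median log2 fold change 1.501, against -0.00138 for all genes). Hsph1, a partner of Hsp70, had 76.0 and 20.4 CPM in NC members and 254 and 287 CPM in HFpEF members (log2 fold change 2.71, SE 0.34, edgeR adjusted p = 0.00256). Hspa1b, an inducible Hsp70, had 2572 and 871 CPM against 4479 and 6876 CPM (log2 fold change 1.73, SE 0.35), and its near-identical neighbour Hspa1a had 3285 and 1562 CPM against 5870 and 7803 CPM. The mitochondrial chaperones Hspd1 and Hspe1 rose by 1.60 and 1.501. In other gated ECs of the same libraries Hsph1 stood at 61.6 and 30.3 CPM under NC and at 149.6 and 205 CPM under HFpEF, with a log2 fold change of 1.96 that was not called there (edgeR adjusted p = 0.0598). The count was 4 after thinning, 3 under the stricter rule, 2 with DESeq2, and 0 without NC library 2 and in all gated ECs. DESeq2 called neither Hsph1 (log2 fold change 2.51, adjusted p = 0.19) nor Hspa1b (1.71, adjusted p = 0.406). Hspa1b was not called under the stricter rule (1.57, edgeR adjusted p = 0.055). In all gated ECs, where neither was called, the log2 fold change was 2.00 for Hsph1 and 1.67 for Hspa1b. The size moved with the NC libraries: it was 3.73 and 2.70 without NC library 1, and 1.84 and 1.14 without NC library 2.

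Genes outside the heat shock list were also called higher. Gdf15, a stress-induced hormone, had 4.11 and 2.15 CPM in NC members and 26.8 and 56.2 CPM in HFpEF members (log2 fold change 4.00, SE 0.54). Few members carried it, with 2 UMIs in each NC library, 8 UMIs in 3 members of HFpEF library 1, of which 6 lay in 1 cell, and 83 UMIs in 33 members of HFpEF library 2. Other gated ECs had 18.9 and 13.1 against 42.4 and 60.4 CPM of Gdf15. The metallothionein Mt1 had 10.3 and 11.8 CPM against 50.2 and 42.0 CPM (log2 fold change 1.94, SE 0.37), and Ulk4 had 6.16 and 3.22 CPM against 16.7 and 36.5 CPM (log2 fold change 2.83, SE 0.55), the NC values of Ulk4 resting on 3 UMIs in each library. The NC values of Mt1 rest on 5 and 11 UMIs. Mt1 was not called without NC library 1 (log2 fold change 1.88), NC library 2 (2.07) or HFpEF library 2 (2.18). In other gated ECs Mt1 had a log2 fold change of 0.21 and was not called. Plaur, the urokinase receptor (1.67), Vegfa (1.11), Kdm6b, a histone demethylase (1.30), Bag3, a chaperone partner of Hsp70 (1.31), and Adamts4 (1.33) were higher as well, as were Noct (1.41), Pik3c2b (1.38), Phlda1 (1.04) and Dnaja1 (0.88).

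Only 2 genes of the interferon lists were called between the diets. Ms4a4d had 4.11 and 6.44 CPM in NC members and 30.1 and 46.0 CPM in HFpEF members (log2 fold change 2.84, SE 0.45, edgeR adjusted p = 0.0074). The NC values rest on 2 and 6 UMIs, and Ms4a4d was not called without NC library 2 (edgeR adjusted p = 0.255), without HFpEF library 2 (2.43, edgeR adjusted p = 0.566) or in the sum of all gated ECs (2.03, edgeR adjusted p = 0.126). Cxcl10 had 140 and 277 CPM in NC members and 592 and 484 CPM in HFpEF members (log2 fold change 1.30, SE 0.24, edgeR adjusted p = 0.0323). In the sum of all gated ECs, chosen without the 5 genes, its log2 fold change was 0.83 (edgeR adjusted p = 0.132). With members thinned to 1000 UMIs it was 0.29 (edgeR adjusted p = 0.793), when 5 and 9 NC members and 11 and 41 HFpEF members carried a UMI of Cxcl10. DESeq2 gave 1.37 (adjusted p = 0.267), and edgeR gave 0.94 without NC library 1 (adjusted p = 0.117) and 1.92 without NC library 2 (adjusted p = 0.145). Of 23 genes of the interferon gamma list, all had fold changes above 0 (median log2 fold change 0.44, against -0.00138 for all genes), and Cxcl10 alone was called. In other gated ECs this list summed to 1873 and 2339 CPM under NC and to 3311 and 2982 CPM under HFpEF. In the interaction test described below, 8 of 28 genes of this list were above 0 (median -0.26). Of 49 antiviral effectors, 14 had fold changes above 0 between the diets (median -0.16). The 2 lists were not tested against each other. Irf1 had 376 and 624 CPM in NC members against 729 and 690 CPM in HFpEF members, which did not overlap, but the difference was not called (log2 fold change 0.49, edgeR adjusted p = 0.355). None of the 8 factors, 20 MHC class I genes, 8 receptors and kinases and 10 sensors tested was called.

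Of the 6 genes that were lower in HFpEF members, Timp4, an inhibitor of metalloproteases and a capillary marker, had 1622 and 1034 CPM in NC members and 518 and 475 CPM in HFpEF members (log2 fold change -1.42, SE 0.21). Cyp1a1, a target of the aryl hydrocarbon receptor, had 45.2 and 34.3 CPM in NC members and no UMI in HFpEF members. Against 3 counts over the HFpEF group it was at least 23.5-fold lower. Thrsp, a lipogenic gene, had 285 and 287 CPM against 127 and 130 CPM (log2 fold change -1.16, SE 0.18). Adh1 had a log2 fold change of -1.93, Sult1a1 of -1.16 and Ramp2, a subunit of the adrenomedullin receptor, of -0.97. Besides the loss of all 6 without NC library 2, Ramp2 was not called without NC library 1 (edgeR adjusted p = 0.154). Thrsp, Sult1a1 and Ramp2 were not called with cells thinned to 1000 UMIs, and these 3 and Adh1 were not called under the stricter rule. DESeq2 called 4 of the 6, Timp4, Thrsp, Sult1a1 and Ramp2, but neither Cyp1a1 nor Adh1. Cyp1a1 was not among the genes tested with cells thinned to 1000 UMIs or under the stricter rule. In the sum of all gated ECs Cyp1a1 alone was called. In other gated ECs the same 6 genes had log2 fold changes between -4.44 and -0.74.

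**Figure D5:**
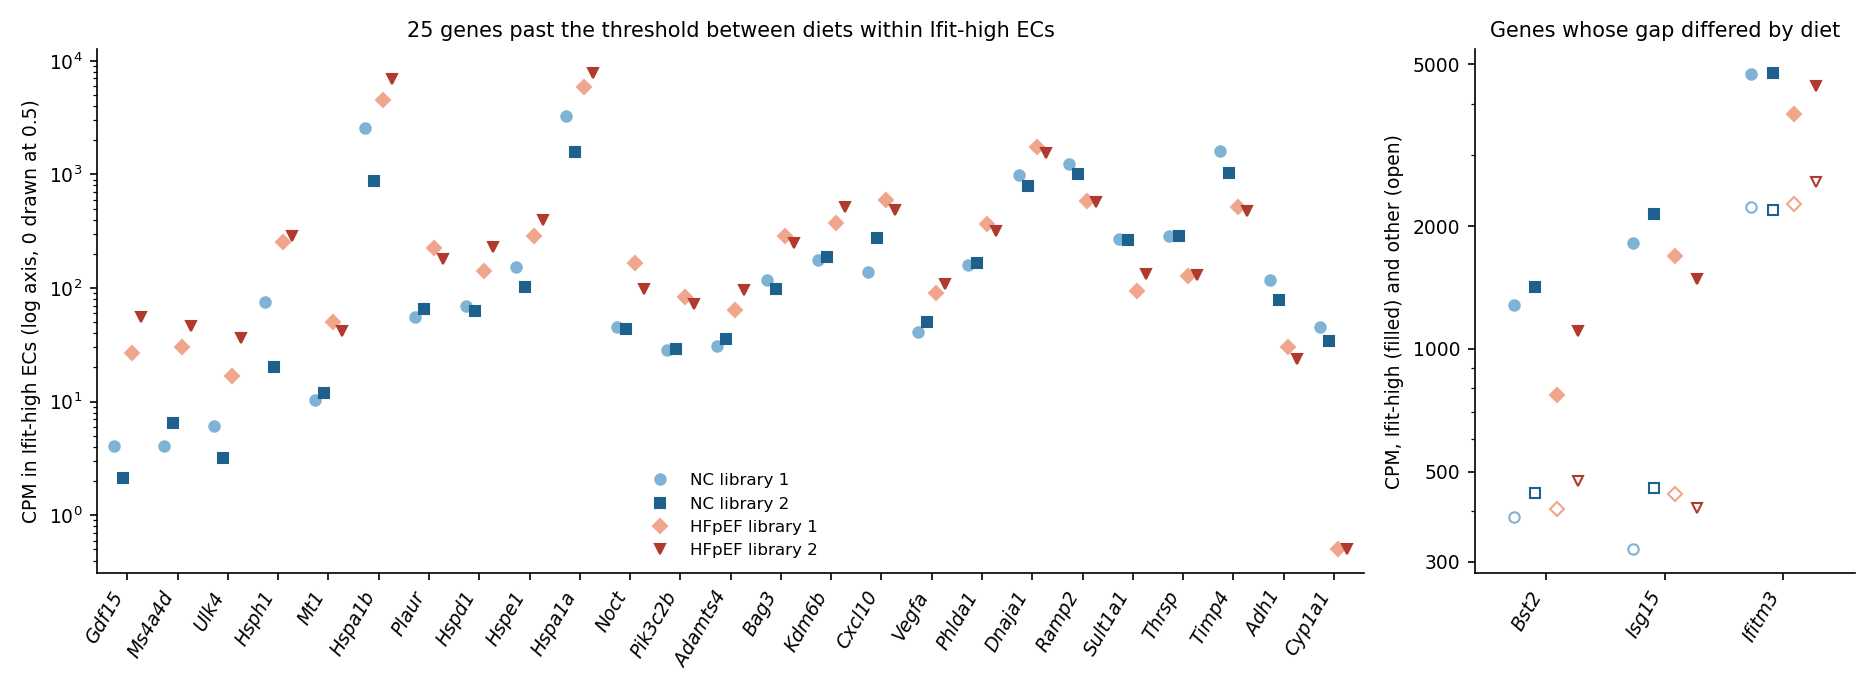
Left, CPM per library in members on a log axis for the 25 genes called between the diets, ordered by fold change, with the 2 HFpEF values of Cyp1a1, which are 0, drawn at 0.5. Right, Bst2, Isg15 and Ifitm3 in members (filled) and other gated ECs (open). Filled HFpEF points lie below filled NC points for each gene.

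Whether the gap between members and other gated ECs differed by diet was tested as an interaction in edgeR over all 8 sums. Of 10930 genes, 3 (0.0274%) had a smaller gap in HFpEF and none a larger one, and all 3 were antiviral effectors. For Bst2 the log2 ratio of members to other gated ECs was 1.73 and 1.68 under NC and 0.93 and 1.22 under HFpEF (interaction -0.62, SE 0.10, edgeR adjusted p = 0.00158). For Isg15 it was 2.49 and 2.23 against 1.94 and 1.87 (interaction -0.49, SE 0.09, edgeR adjusted p = 0.0157). For Ifitm3 it was 1.09 and 1.12 against 0.74 and 0.78 (interaction -0.38, SE 0.07, edgeR adjusted p = 0.0157). None of the 3 was called after thinning to 1000 UMIs, where the interactions were -0.45, -0.35 and -0.39, and DESeq2 called no gene (88 had an unadjusted p under 0.05). None of the 3 was called under the stricter rule of 5 UMIs and 0.2% either, with edgeR adjusted p = 0.106 for Bst2, 1 for Isg15 and 0.0687 for Ifitm3. Ifitm3 was also not called with RLE size factors (edgeR adjusted p = 0.057) or without marker-carrying cells (edgeR adjusted p = 0.0674). Isg15 was not called without NC library 1 (-0.37, edgeR adjusted p = 0.848), and Ifitm3 was not called without NC library 1 (-0.39, edgeR adjusted p = 0.366) or without NC library 2 (-0.35, edgeR adjusted p = 0.614). The interaction for Cxcl10 was 0.47 (edgeR adjusted p = 0.786), and 8 of 52 antiviral effectors had an interaction above 0.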

How the data were processed

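Single-cell RNA sequencing of sorted left-ventricular cells gave 4 libraries, 2 per diet, named here by the number in their titles. The authors deposited UMI counts per gene and cell, made with fastp and Cell Ranger 5.0.1 on mm10, as the submitters' notes and the study's methods say, with reads downsampled and libraries aggregated. Nothing in the sources says how many mice a library holds, so p-values measure the spread between libraries. Library totals were 30387717 and 31517933 UMIs (NC) and 11163876 and 48003732 UMIs (HFpEF).

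Cells were chosen by the rule in the report, and no doublet caller was run. Counts were summed per library and class, and fitted with edgeR 4.0.16 (TMM, quasi-likelihood, Benjamini-Hochberg over all genes fitted, threshold 0.05) in R 4.3.3. Members against other gated ECs had the library as a block, the diets were compared on the members' sums, and the interaction used all 8 sums. The study itself tested over cells. The 22 genes of the rule and its gates were left out of counts of calls. Genes were named from the class comparison (up to 12 per direction with a mean of 10 CPM or more and 1 direction in 4 of 4 libraries), the diet comparison (up to 6 per direction, 10 CPM, no overlap of libraries) and the interaction (up to 3 per direction), beside the 5 rule genes, Scarb1, Irf1, Cxcl10 and up to 6 abundant members per gene list. Other genes given in the text were chosen after their values were seen. An item of the factor list is not reported here and was left out of its counts. The members and lists were chosen with earlier results of these data known.

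Thinning drew 1000 or 2000 UMIs per cell without replacement and left out shallower cells, among them 0 and 2 NC members and 2 and 23 HFpEF members at 1000 UMIs. Of the cells that passed the quality filter, 6688 of 7114 and 6335 of 6687 were kept at 1000 UMIs in NC. In HFpEF 4477 of 5440 and 15455 of 20588 were kept. The stricter rule asked for 5 UMIs and 0.2%. Other alternatives were DESeq2 1.42.0, RLE size factors, no filter on low counts, leaving out each library, leaving out marker-carrying cells, other comparison cells, and the fit with and without a block. On simulated counts with 200 changed genes the class fit recovered 74.5% of changes of 1 log2 unit and 93% of 2, the diet fit 40.5% and 87%, and the interaction fit 27% and 73%. Near-identical genes (Ifit3 and Ifit3b, Hspa1a and Hspa1b, the Ifi200, Oas and Gbp families) may exchange UMIs. RefSeq promoters (GRCm38.p6) were matched by symbol.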

Additional observations from a re-analysis of the deposited data

Results flagged for a closer look

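The gap between Ifit-high and other gated ECs differed between the diets for 3 antiviral effectors by an interaction test in edgeR. The log2 difference of the gap, HFpEF minus NC, was -0.62 for Bst2, -0.49 for Isg15 and -0.38 for Ifitm3. None of the 3 was called with cells thinned to 1000 UMIs, under the stricter rule or with DESeq2, where the adjusted p was 0.411 for Bst2 and 1 for the others, while the direction was kept in each. Median depth per member was 3682 and 4336 UMIs in NC and 2099 and 2410 UMIs in HFpEF, and the part of depth in these differences was not tested apart from thinning. The Isg15 level of other gated ECs lay at 322 and 456 CPM under NC and at 439 and 406 CPM under HFpEF, so the diets overlapped there.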

How the results depend on the processing

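The class comparison called 285 genes (14 lower, 1 to 272 under the alternatives), 130 with cells thinned to 1000 UMIs (110 higher, 20 lower), 633 against all other ECs (361 higher, 272 lower) and 139 without the library block (138 higher, 1 lower). The diet comparison called 25 genes, 11 with DESeq2, 120 without a filter on low counts, 5 thinned (1099 genes could be tested), 7 under the stricter rule, 58 without marker-carrying cells and 1 in all gated ECs, an alternative added after seeing the data. Leaving out 1 library, which leaves a diet with 1 sum assumed to vary like the others, gave 0 to 128 calls. Heat shock calls, 5, became 2 with DESeq2, 3 under the stricter rule, 0 in all gated ECs and 0 to 7 without 1 library. Interaction calls, 3, became 0 with DESeq2, 0 thinned (268 with an unadjusted p under 0.05), 7 unfiltered, 2 under the stricter rule (0 shared with the 3) and 8 to 17 without 1 library. No label says what the library numbers stand for, and the deviations of same-numbered libraries had a correlation of 0.0337 over 2 pairs, so the diet fit had no block. With the replicate number as a block it called 159 genes, among them all 25. Scarb1 was higher in the number 1 library of each diet, and the part of the numbers in the diet calls was not tested. The share difference, HFpEF minus NC, was -0.28 percentage points, and reversed to 2.16 with 0.1% alone, 0.223 over all ECs, 0.583 thinned to 1000 and 1.30 thinned to 2000 UMIs, and ranged from -1.29 to 0.733 without 1 library. Genes that were not called reversed as follows. Scarb1 between the classes was -0.46 thinned, -0.039 under the stricter rule, -0.087 without the library block and -0.0029 to 0.16 without 1 library. Between the diets Scarb1 was -0.26 to 1.08 without 1 library, Isg15 was 0.077 in all gated ECs, and Irf7 was 0.46 thinned and 0.16 in all gated ECs. In the interaction Cxcl10 was -0.75, Scarb1 -0.25 and Irf7 0.26 thinned, and Irf1 was -0.040 to 0.56 without 1 library. Cxcl10 was called there without HFpEF library 2 (0.89). The causes were not tested. Libraries were 2 per diet, which limits what the diet comparisons can show.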
